A study of Mus musculus with 3 samples.

Results

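The naive pluripotency transcription factors are DNA-binding proteins and co-regulators that hold mouse embryonic stem cells (mESCs) in the state of the preimplantation epiblast. The 10 members described here were chosen by name from knowledge of this network and not from their signals, though with earlier results of these data known. The members are Nanog, Klf2, Klf4, Klf5, Esrrb, Tfcp2l1, Tbx3, Prdm14, Zfp42 and Nr0b1. They are 10 of 20660 genes that could be named on the array, and they were measured by 11 of 55681 probes that were not controls. All 3 samples were J1 mESCs, a line of strain 129S4/SvJae derived from the inner cell mass, bought from ATCC and kept without feeder cells on gelatin in knockout medium with serum replacement. Every sample had 1000 U/mL of leukemia inhibitory factor (LIF) and was treated for 24 h with 1 µM PD0325901 (PD), a small molecule that blocks MEK, the kinase upstream of ERK. Per the labels these were replicates 1 to 3 of 1 group, each on its own 1-colour (Cy3) array. Cells without PD were not analysed here, so the values describe PD-treated cells of 1 line and no effect of PD was measured.

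In the naive network, LIF acts through Stat3 and inhibition of MEK relieves ERK-driven exit from self-renewal, and both inputs reach the network through its transcription factors. Klf4 and Tfcp2l1 are known targets of the LIF and Stat3 route, Tbx3 responds to phosphoinositide signalling, and Esrrb and Tfcp2l1 are freed from repression by Tcf7l1 when Wnt signalling is active. Klf2 protein is marked for decay by ERK, and Nanog and Prdm14 are known for their response to MEK inhibition. The members bind each other's regulatory regions together with Pou5f1 and Sox2.

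Motifs of some factors of the network can be searched for as letters in front of the genes. Most of the links named above were not covered by such a search. RefSeq windows on GRCm38.p6 held 7 of the 10 members, namely Nanog, Klf2, Klf4, Esrrb, Tfcp2l1, Zfp42 and Nr0b1, with 2 start sites each for Nanog and Esrrb. The 250 bases before each start were searched on both strands. The promoters in which matches to the network's own factors lay are printed below, 5′ to 3′ on the strand of the gene and ending at the base before the start. Capitals mark the matches described after them.
Nanog, chr6:122707239-122707488, plus strand: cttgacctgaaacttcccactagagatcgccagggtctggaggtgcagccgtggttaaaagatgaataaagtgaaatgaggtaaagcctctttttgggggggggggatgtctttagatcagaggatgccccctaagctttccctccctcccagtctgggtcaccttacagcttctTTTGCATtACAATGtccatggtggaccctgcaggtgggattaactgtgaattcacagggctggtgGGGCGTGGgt
Zfp42, chr8:43307010-43307259, minus strand: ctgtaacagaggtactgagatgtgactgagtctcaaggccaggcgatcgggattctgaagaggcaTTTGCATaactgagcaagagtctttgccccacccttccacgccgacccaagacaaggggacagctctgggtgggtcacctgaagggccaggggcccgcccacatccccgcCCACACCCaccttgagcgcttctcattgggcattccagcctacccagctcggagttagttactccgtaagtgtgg
Tfcp2l1, chr1:118627695-118627944, plus strand: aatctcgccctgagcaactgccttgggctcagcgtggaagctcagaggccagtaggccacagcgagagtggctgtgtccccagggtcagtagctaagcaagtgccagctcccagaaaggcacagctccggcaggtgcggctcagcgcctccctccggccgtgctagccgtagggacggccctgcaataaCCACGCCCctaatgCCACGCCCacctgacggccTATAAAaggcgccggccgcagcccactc
Esrrb, chr12:86360867-86361116, plus strand: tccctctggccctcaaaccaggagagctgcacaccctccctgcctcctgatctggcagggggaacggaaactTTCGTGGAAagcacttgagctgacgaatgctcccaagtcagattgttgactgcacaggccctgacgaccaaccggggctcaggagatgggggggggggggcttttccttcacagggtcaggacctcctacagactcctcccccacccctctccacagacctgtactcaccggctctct

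In Nanog, the first pair of capital runs are the letters of the known element that Pou5f1 and Sox2 bind side by side. The core of the octamer to which Pou5f1 binds, ATGCAAA or its reverse complement TTTGCAT, lay 75 to 69 bases before the start, and a core to which SOX factors bind, ACAATG, followed at 67 to 62 bases, with a single base between them. Among the 7 members the octamer core was found again in Zfp42, 185 to 179 bases before the start, and the SOX core was in Nanog alone. Of all 32851 windows, 1355 (4.12%) held the octamer core and 3512 the SOX core. The SOX core was chosen once the Nanog promoter had been seen. Its match in Nanog was therefore known beforehand, and no enrichment among the members can be read from it.

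A KLF motif, GGGNGTGG or its reverse complement, was found in 4 of the 9 member windows, beside 15.9% of all windows. These belonged to 3 of the 7 members. Nanog held it 10 to 3 bases before the start, Zfp42 75 to 68 bases before it, and Tfcp2l1 held 2 matches, at 61 to 54 and 47 to 40 bases. The window of the second Nanog start, which lies downstream of the printed stretch and overlaps it, held the same matches and 1 further KLF match. The STAT motif TTCNNNGAA was found in 1 of the 9 member windows, beside 7.02% of all windows. It lay in Esrrb, 178 to 170 bases before the start. The ESRRB motif TCAAGGTCA was in none of the 7 and in 0.387% of all windows. A TATA box, spelled TATAAA, was found in 2 of the 9 member windows, beside 12.4% of all windows. These were the windows of Nr0b1 and of Tfcp2l1, where it is marked in capitals at 28 to 23 bases. These are matches of letters, not measured binding.

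The 3 arrays were alike in brightness. For replicates 1, 2 and 3, the processed signal had its 75th percentile at 551, 511 and 527, its median was at 41.2, 39.4 and 38.2, and no spot was saturated. Between 63.1% and 65.2% of probes were well above background on an array. All 5 markers of embryonic stem cells other than the members (Pou5f1, Sox2, Sall4, Utf1 and Tdgf1) were detected on all arrays, beside 72.7% of named genes. Their mean levels ran from 3.50 to 5.68. A level is the log2 of the processed signal minus the 75th percentile of its array, so that a level of 0 is that percentile. Because brightness depends on the probe as well as on the transcript, levels of different genes were placed in order as a description and were not tested against each other.

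All 10 members were detected on all 3 arrays, beside 72.7% of named genes. All 11 of their probes were detected, beside 60.3% of all probes. Of the 10, 9 lay at least 1 log2 unit above the 75th percentile on every array, with Nanog as the exception. In the order of brightness, Esrrb was followed by Klf2, Zfp42, Klf5, Nr0b1, Klf4, Tbx3, Tfcp2l1, Prdm14 and Nanog. This order was the same on each of the 3 arrays, and the ranges of neighbours did not overlap. The narrowest steps were those from Nr0b1 to Klf4, with a difference of 0.10 ± 0.072 (SD, n = 3), and from Klf4 to Tbx3, with 0.14 ± 0.046. With background correction by normexp, Klf4 was brighter than Nr0b1, at mean levels of 4.53 and 4.37, and Zfp42 than Klf2, at 5.49 and 5.47, so these neighbours have no settled order.

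**Figure D1:**
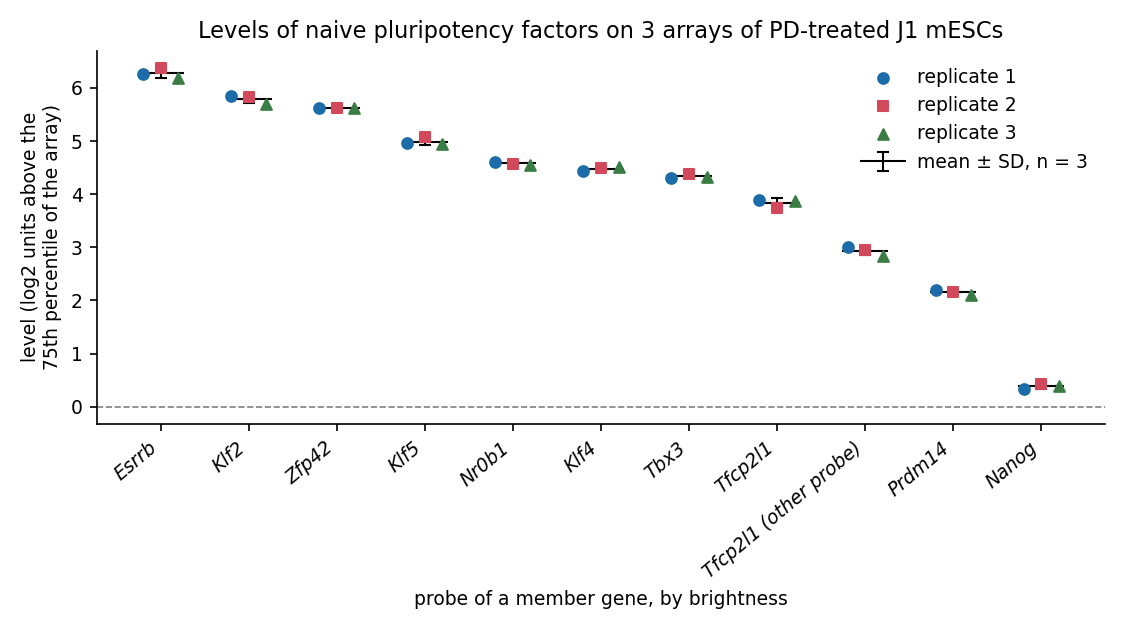
Level of each of the 11 member probes on each array (log2 units above the 75th percentile of the array, dashed line), with the mean and SD over 3 replicates. Means run from 6.28 for Esrrb to 0.39 for Nanog, and the 3 replicates of a probe lie within 0.20 log2 units of each other.

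Nanog, the homeodomain factor whose loss opens the way to differentiation, was the dimmest member. Its processed signal was 695 in replicate 1, 690 in replicate 2 and 689 in replicate 3, a coefficient of variation of 0.445%. On the level scale this was 0.34, 0.43 and 0.39, with a mean of 0.39 ± 0.048 (SD, n = 3). The signals were not normalized between arrays, and the scanner software put the error of this spot at about 10%. Their near equality is therefore no measure of a steady Nanog level. Between 76.9% and 77.3% of all probes on an array were dimmer, but only 47.2% of detected genes were. The spot read 38.0 to 45.0 times its local background. The 1 Nanog probe carries NM_028016, and RefSeq lists 3 other transcripts of the gene, which were not measured by a probe of their own name.

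Klf2, Klf4 and Klf5 are zinc finger factors of the Krüppel-like family that share many binding sites and can stand in for each other in self-renewal. Klf2 had signals of 31522, 29083 and 27440 in replicates 1 to 3, levels of 5.84, 5.83 and 5.70 and a mean of 5.79 ± 0.076 (SD, n = 3). Replicate 3 was the low one. Klf5 had signals of 17084, 17138 and 16151, levels of 4.96, 5.07 and 4.94 and a mean of 4.99 ± 0.070, with replicate 2 above the other two. Klf4, also known as a reprogramming factor, had signals of 11867, 11469 and 12034, levels of 4.43, 4.49 and 4.51 and a mean of 4.48 ± 0.043. The 3 factors did not share the replicate in which they were highest, which was replicate 1 for Klf2, 2 for Klf5 and 3 for Klf4.

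Esrrb, an orphan nuclear receptor that can replace Nanog in part, was the brightest member. Its signals were 42313, 42672 and 38256, its levels 6.26, 6.38 and 6.18 and its mean 6.28 ± 0.10 (SD, n = 3). Its range of 0.20 log2 units, from replicate 3 to replicate 2, was the widest of the 10. The spot read 2117 times its local background or more on each array, and 97.1% of detected genes were dimmer than Esrrb.

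Nr0b1 (Dax1) is an orphan receptor without a classical DNA-binding domain that acts as a co-regulator with Pou5f1 and Esrrb. It is the only member printed many times on the array, at 10 spots. The mean signal of its spots was 13440, 12175 and 12360, and its levels were 4.61, 4.57 and 4.55, with a mean of 4.58 ± 0.029 (SD, n = 3). Unflagged spots ran from 12149 to 14222 on replicate 1, from 11469 to 12727 on replicate 2 and from 11631 to 13608 on replicate 3. The spots of the 3 arrays thus overlapped.

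Within an array, the raw spots of Nr0b1 differed more than the processed ones. The coefficient of variation over the 10 spots went from 13.5% in the raw signal to 4.47% in the processed signal on replicate 1 and from 14.3% to 4.48% on replicate 3. On replicate 2 the scanner software set aside 2 spots as outliers, at 12913 and 8794. The dimmer of them read 13384 and 12226 on replicates 1 and 3, and over the 8 spots that were kept the coefficient went from 10.5% to 3.80% on replicate 2. The array has 48 blocks, and in 6 of them replicate 2 had at least 10 spots of uneven brightness. The dimmer spot lay in 1 of these 6 blocks. Of the 10 spots of Nr0b1, 3 lay in such blocks, whereas none of the other 10 member probes did.

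With its 10 spots, Nr0b1 was the member for which the arrays could be compared with an error of their own. The moderated F test of limma over 284 probes with 10 spots called 40.5% of them different between these 3 hybridised samples, whereas Nr0b1 did not pass (adjusted p = 0.259, limma). Replicate 2 minus replicate 1 came to -0.036 ± 0.030 log2 units (SE), replicate 3 minus replicate 1 to -0.057 ± 0.028, and replicate 3 minus replicate 2 to -0.021 ± 0.030. No pair passed by limma. Scaled to the median of each array in place of the 75th percentile, Nr0b1 did pass (adjusted p = 0.0468, limma) with replicate 2 lowest, and over all alternatives the adjusted p ran from 0.0468 to 0.941. The test treats spots as repeats, without pairing them by their position on the array. It concerns these samples, not a condition.

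**Figure D2:**
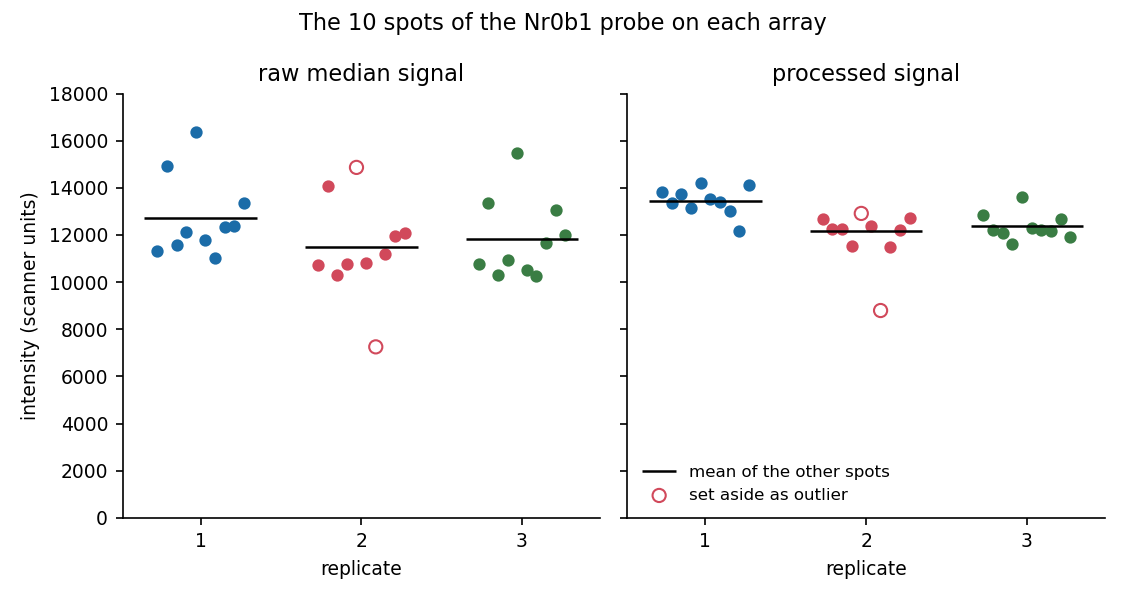
Intensity in scanner units of the 10 spots of the Nr0b1 probe on each array, as raw median signal and as processed signal; lines are means of unflagged spots and open circles are the 2 spots set aside on replicate 2. The spots draw together after processing, and those of the 3 arrays overlap.

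Tfcp2l1, a grainyhead-like factor that sustains self-renewal downstream of LIF, was the only member with more than 1 probe. Both probes carry NM_023755. The brighter had signals of 8179, 6822 and 7737, levels of 3.89, 3.74 and 3.88 and a mean of 3.84 ± 0.085 (SD, n = 3). The dimmer had signals of 4389, 3942 and 3774, levels of 3.00, 2.95 and 2.84 and a mean of 2.93 ± 0.079. The 2 probes of 1 gene thus differed by 0.90, 0.79 and 1.04 log2 units, on average 0.91 ± 0.12, or 1.88 ± 0.161 times in signal. That gap is wider than most steps between neighbouring members. They also differed in which array was lowest, replicate 2 for the brighter probe and replicate 3 for the dimmer.

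Tbx3 is a T-box factor and Prdm14 a PR-domain factor that represses fibroblast growth factor signalling and DNA methylation genes. Tbx3 had signals of 10930, 10663 and 10545, levels of 4.31, 4.38 and 4.32 and a mean of 4.34 ± 0.038 (SD, n = 3). Prdm14 had signals of 2513, 2274 and 2262, levels of 2.19, 2.15 and 2.10 and a mean of 2.15 ± 0.044. Prdm14 was thus dimmer than Tbx3 on every array. It was brighter than 85.8% to 86.2% of all probes and than 67.75% of detected genes.

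Zfp42 (Rex1), a zinc finger protein widely used as a reporter of the naive state, had the smallest SD of the level among the members. Its signals were 27071, 25132 and 26078, and its levels were 5.62, 5.62 and 5.63, with a mean of 5.62 ± 0.0059 (SD, n = 3). The SD was 0.0061 under quantile normalization and 0.0068 in the deposited table, but 0.028 with normexp. When arrays were scaled to their medians it was 0.050, and Tbx3 had the smallest SD, at 0.029. The 3 signals themselves differed by several percent.

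The spread between replicates was small for all members. Their median SD was 0.046, from 0.0059 for Zfp42 to 0.10 for Esrrb, beside a median of 0.074 over 15006 detected genes and 0.055 over the 3752 genes in the brightest 25% of these. Of the members, 8 lay among them, all but Prdm14 and Nanog. No member had a range above 1 log2 unit, beside 0.986% of detected genes. Within the brightest 25%, 85.5% of genes had a smaller SD than Esrrb, 78.0% a smaller one than Tfcp2l1 and 71.6% a smaller one than Klf2, but only 18.9% a smaller one than Nr0b1 and 0.773% a smaller one than Zfp42. The members therefore ranged over most of the spread of genes of like brightness. With 3 arrays each SD rests on single values: without replicate 2 that of Tfcp2l1 was 0.012 in place of 0.085, and without replicate 3 that of Klf2 was 0.0067 in place of 0.076. For Nr0b1, the mean over up to 10 spots stands against single spots of most other genes.

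**Figure D3:**
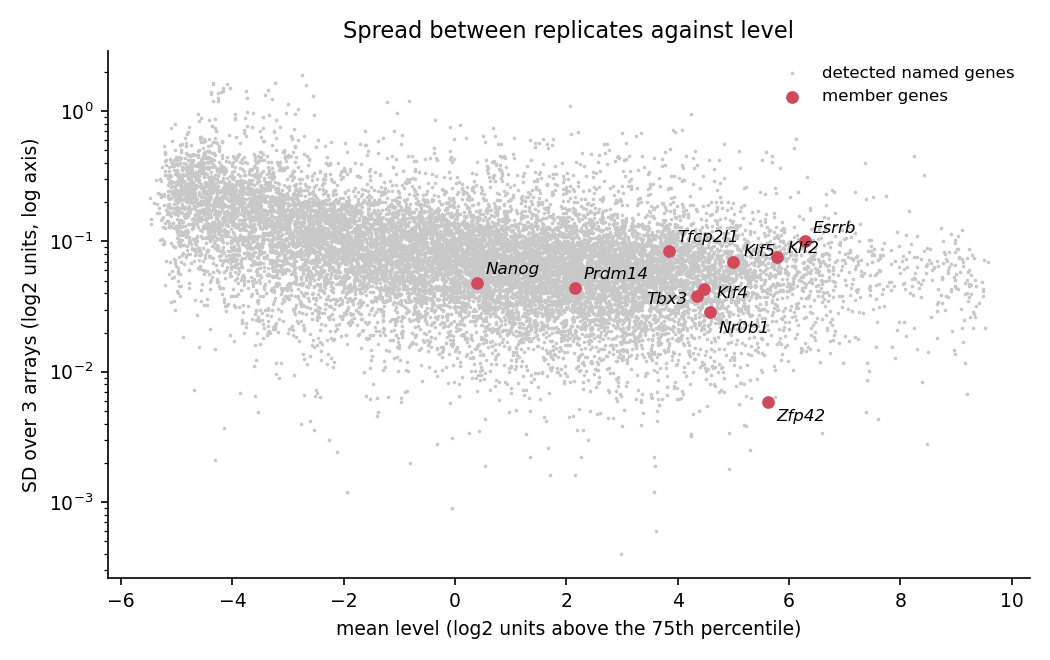
SD over the 3 arrays (log axis, log2 units) against mean level for 15006 detected named genes (grey) and the 10 members (red). Member SDs lie between 0.0059 (Zfp42, at the lower edge of the cloud) and 0.10 (Esrrb).

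No replicate was high or low for all members. Replicate 2 lay farthest from the median of the 3 arrays in 4 of 10 members, beside 42.8% of detected genes, and replicates 1 and 3 did so in 3 each. Replicate 1 was highest in 4 members, beside 24.5% of detected genes, and lowest in 3, beside 37.1%. Replicate 2 was highest in 4, beside 46.5%, and lowest in 2, beside 27.4%. Replicate 3 was highest in 2, beside 29.0%, and lowest in 5, beside 35.5%. With arrays scaled to their medians, replicate 2 was highest in 2 members, beside 23.2% of detected genes, and lowest in 4, beside 47.0%, so the place of an array among the members depends on the scaling. Klf5 and Esrrb were highest in replicate 2 and the brighter probe of Tfcp2l1 lowest in it under both scalings.

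**Figure D4:**
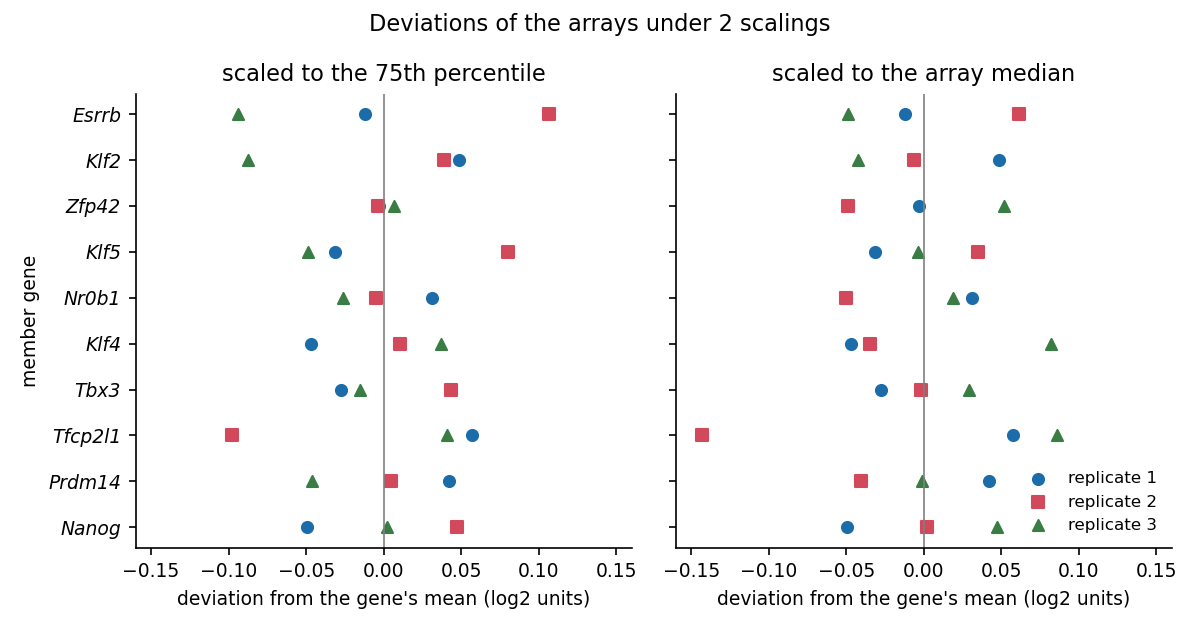
Deviation of each replicate from the mean of its gene (log2 units) for the 10 members, with arrays scaled to the 75th percentile (left) or to the median (right). Replicate 2 moves to the left on median scaling, from highest in 4 members to highest in 2.

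The partners of the members were detected as well. Of 6 partners, all 6 were detected on all arrays, beside 72.7% of named genes, at mean levels from 1.57 to 4.56. Pou5f1, the POU factor that shares the element in Nanog with Sox2, had levels of 4.35, 5.04 and 4.28 and a mean of 4.56 ± 0.42 (SD, n = 3), with replicate 2 apart from the others. Sox2 had levels of 3.55, 3.24 and 3.70 and a mean of 3.50 ± 0.23, and replicate 2 was the lowest. Both SDs were larger than that of every member. Sall4 (4.15), Stat3 (3.94), Gbx2 (1.96) and Tcf7l1 (1.57) made up the list.

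All 8 reported genes of the signalling routes into the network were detected on all arrays, beside 72.7% of named genes. Mean levels ran from 1.86 for Jak1, the kinase beneath the LIF receptor, to 4.89 for Ctnnb1 (β-catenin). The receptor genes Lifr and Il6st lay at 3.07 and 2.14. Map2k1 and Map2k2, which encode the MEK kinases that PD inhibits, lay at 3.18 and 3.41, and Mapk3, which encodes an ERK kinase, lay at 2.75. PD acts on the kinase protein, and these are transcript levels.

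Of 25 paralogues of the members with a probe, 20 were detected on all arrays, a share near the 72.7% of all named genes. In the Klf family, 13 of 14 paralogues were detected, from Klf1, the erythroid factor, at -3.46 to Klf9 at 3.62, with Klf3 at 3.57, Klf10 at 3.35 and Klf6 at 3.02. Klf2, Klf4 and Klf5 were thus all brighter than the brightest of these paralogues, on every array. Klf14 was detected on no array.

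The paralogues of the other members showed a like order in brightness. Esrra lay at 3.01 and Esrrg was not detected, beside 6.28 for Esrrb. Tfcp2 lay at 0.46 and Ubp1 at -0.82, both below either probe of Tfcp2l1. Tbx4 lay at -2.88, and Tbx2 and Tbx5 were not detected on any array, beside 4.34 for Tbx3. Prdm1 lay at -0.46 beside 2.15 for Prdm14. Yy1, a factor that nearly every cell uses, lay at 2.44 and Yy2 at -1.20, beside 5.62 for Zfp42, and Nr0b2 was detected on 1 array. As probes differ in brightness for reasons of their own, these are values side by side and not tested differences.

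Markers of neighbouring states were detected in part, and the counts stand beside 72.7% of all named genes detected on all arrays. Of 8 primed epiblast markers, 6 were detected on all arrays, among them Dnmt3b, a de novo DNA methyltransferase, at 5.91, Otx2 at 2.75 and Zic2 at 2.65, whereas Fgf5 lay at -3.87, T was detected on 2 arrays and Cer1 on 1. All 7 primitive endoderm markers were detected, at low levels from -3.72 for Pdgfra to -1.89 for Sox7. The dimmest member, Nanog, was brighter than all of them on every array, but dimmer than Dnmt3b, Otx2 and Zic2 of the primed epiblast list. Of 6 trophoblast markers 3 were detected, Eomes (0.03), Krt8 (-1.49) and Krt7 (-3.96), and Cdx2, Elf5 and Hand1 were not detected on any array. Of 6 fibroblast markers 3 were detected, Thy1 (0.24), Col1a1 (-1.23) and Twist1 (-3.70), with Col3a1 on 1 array and Lum and Postn on none. In such bulk samples, a small share of other cells and a low level in all cells cannot be told apart.

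**Figure D5:**
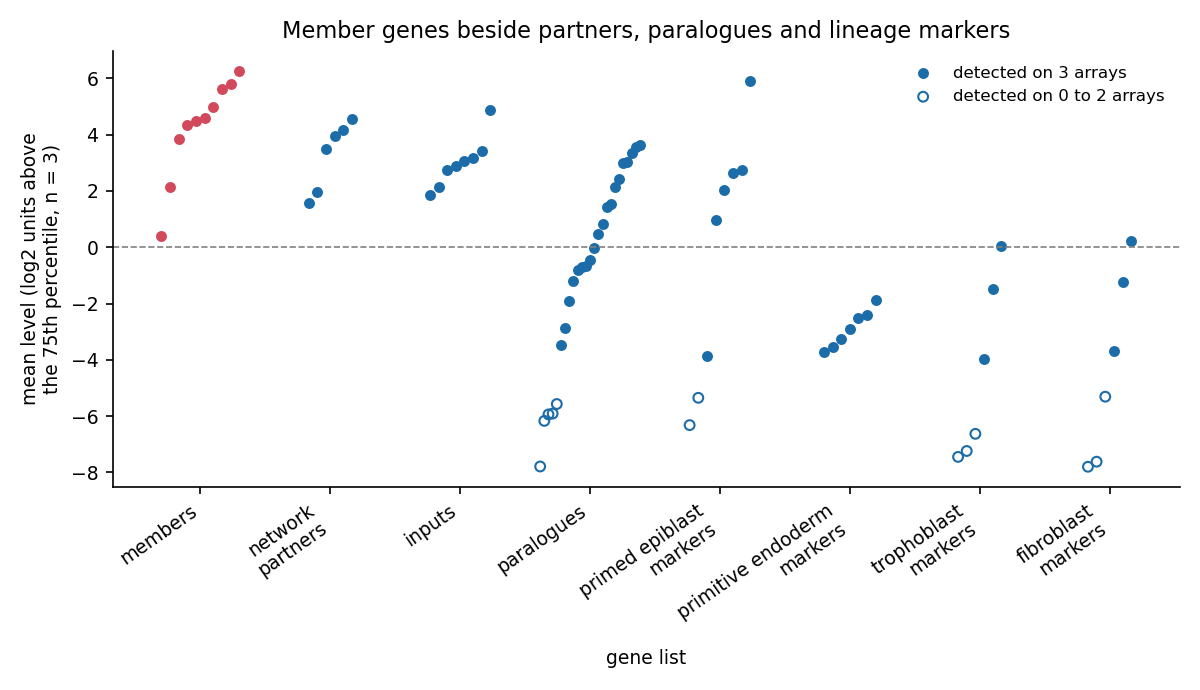
Mean level over 3 arrays (log2 units above the 75th percentile, dashed line) of each member, partner, input gene and paralogue. Markers of primed epiblast, primitive endoderm, trophoblast and fibroblasts are also shown. Open circles were detected on fewer than 3 arrays, so their means include values from arrays on which the gene was not detected. The 10 members lie between 0.39 and 6.28, and the 7 primitive endoderm markers between -3.72 and -1.89. The 6 primed epiblast markers detected on all arrays lie between -3.87 and 5.91.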

How the data were processed

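Total RNA of 3 PD-treated J1 mESC samples, from 3 independent experiments per the study's methods, was hybridised in 1 colour to Agilent mouse arrays on 1 slide. Per the file headers, the authors' scanner values are spot intensities from Agilent Feature Extraction 10.7.3.1, background-subtracted and detrended within each array but not normalized between arrays. The authors also deposited a log2 value per probe, whose normalization is not given in the sources used here, and it served as an alternative. The deposited flags of other kinds marked spots well above background, outliers and uneven spots.

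Spots without outlier flags were averaged, and log2 signals were scaled to the 75th percentile of each array. A probe was detected if at least 50% of its spots were well above background. Of 55681 probes that were not controls, 27235 were named through RefSeq accessions, giving 20660 symbols. For a gene with several probes, the one brightest on average stood for it. Promoter windows came from RefSeq on GRCm38.p6, whereas the array grid refers to mm9, so no probe coordinates are given. The SOX core was added to the motifs after the Nanog promoter had been seen. By rule, every member was to be named with all its probes, partners and paralogues could be named with their values, and of the other lists the brightest detected genes and those not detected. Of the Klf paralogues, the dimmest and the 4 brightest of those detected and the one not detected are named, and the others are counted. A listed gene is not reported here. The members and lists were chosen with earlier results of these data known. Probes with 10 spots were tested by limma 3.58.1 in R 4.3.3, with Benjamini-Hochberg adjustment at 0.05, after tests on simulated data. Summaries were made with Python 3.11.15 and pandas 2.3.3. Alternatives covered scaling, normexp (offset 50, on median signals), the deposited table, detection, probe choice, outlier spots and leaving out each replicate. With 3 arrays, means and SDs are of limited precision.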

Additional observations from a re-analysis of the deposited data

How the results depend on the processing

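The samples could not be paired because all 3 are replicates of a single group. Under each alternative run, all 10 members and all 11 member probes were detected and 0 members had a range above 1 log2 unit, also when each replicate was left out in turn. The median SD of members was 0.0385 to 0.0455 without 1 of the replicates and 0.0443 to 0.0568 under the other alternatives. Replicate 2 lay farthest in 2 members with normexp and in 3 to 6 under the others, against 4 in the report, and the cause was not tested. For Nr0b1 the adjusted p of limma was 0.0468 with arrays scaled to their medians and 0.242 to 0.643 without 1 of the replicates. With spot position as a block it was 0.0913 and with the 75th percentile over detected probes 0.167, both chosen after seeing the data. Scaling to the median moved the SD of 6 members by more than 1.5 times, normexp that of 3, and keeping outlier spots or averaging probes that of 1 each. Leaving out replicate 1, 2 or 3 moved it for 3, 4 and 3 members. Mean levels moved by more than their SD in 9 members with normexp, such as Tbx3 from 4.34 to 3.92 and Nanog from 0.39 to 0.54. They did so in 2 members in the deposited table and in 1 on averaging probes. With the median or the 75th percentile over detected probes as level 0, all 10 moved. The SDs given with the levels do not include such shifts. With 1 spot per array, 8 of the 10 members had no error from repeated spots, and the scanner software put its own error at about 10% of the signal.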
